A study of Mus musculus with 46 samples.

Results

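The genes described here were 9 factors that build ribosomes, measured in mouse embryonic fibroblasts (MEFs) with and without the transcription factor ATF4. They were taken by name from a table of raw read counts with 55416 gene identifiers: Polr1e, a subunit of RNA polymerase I; Nol6, an assembly factor of the small (40S) subunit; Brix1, Rbm28, Mdn1, Tex10, Dnajc21 and Zfp622, assembly factors of the large (60S) subunit; and Exosc3, a subunit of the RNA exosome. All 9 passed a minimum of 5 CPM (the counts of a gene scaled to a common library total) on average over the libraries, and together they held 0.322% of the counts. Wild type or ATF4 KO MEFs received the vehicle DMSO alone, or DMSO with borrelidin at 600 nM, which blocks threonyl-tRNA synthetase, for 7 h. RNA was sequenced in 46 libraries, called biological replicates in the labels, with 11 vehicle and 12 borrelidin libraries in wild type and again 11 and 12 in ATF4 KO. The wild type MEFs were purchased and the ATF4 KO line was made in the laboratory with CRISPR-Cas9 and cell sorting, so the loss of ATF4 and other differences of the lines cannot be told apart. The p-values below measure the spread among libraries of these lines. In bulk RNA, fewer cells of a type and less RNA per cell cannot be told apart.

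Each library had 2047362 to 3467765 counts on gene identifiers. Most rows of the table did not follow the genes they name. They did so in 3 stretches of chromosomes 4, 6 and 15 that span 95.6 Mb and hold 1207 genes of the table, and all 9 members lie there. This was judged on the levels of 36 protein-coding genes of the stretches, with Nol6 the only member among them. The other members are named by the genes around them. The rows of Atf4 and of 15 listed fibroblast markers lie outside these stretches, so the knockout and the cell type were not analysed here. Of 14 listed markers of epithelial, immune and endothelial cells, 1 lies inside, the B cell factor Pax5, which had 0 to 4 counts per library in wild type and 11 to 107 in ATF4 KO; its part in the differences between the lines was not tested. In addition, 14 libraries stood apart from the others of their group on the second principal component: 8 of the 11 wild type vehicle libraries, 3 ATF4 KO vehicle libraries and 3 ATF4 KO borrelidin libraries, but none of the 12 wild type borrelidin libraries. The labels give no batch for them, and results are given with and without them. The paper reports that its second component separated the samples by drug treatment. On this component the wild type borrelidin libraries scored 6.4 to 9.7. The 8 wild type vehicle libraries that stood apart scored -19.9 to -13.8, and the other 3 scored -0.4 to 1.5. Leaving out the 14 libraries thus drops the wild type vehicle libraries farthest from borrelidin on this component, and is no neutral check of the response. Without the 14, wild type had 3 vehicle libraries against 12 with borrelidin.

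Ribosome assembly starts in the nucleolus, where RNA polymerase I transcribes the precursor of the ribosomal RNAs and assembly factors fold and cut it while ribosomal proteins join. Particles of the large subunit then pass through the nucleoplasm, are exported and lose their last assembly factors in the cytoplasm, while the RNA exosome trims the ends of the RNA. When tRNAs lack their amino acid, as with a blocked tRNA synthetase, the kinase GCN2 restrains translation and raises the synthesis of ATF4, which drives genes of amino acid supply and tRNA charging.

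Because expression of the members moved with a treatment known to raise ATF4, their promoters are shown. RefSeq promoters (GRCm38.p6) of 300 bases, 250 before and 50 after the RefSeq start of the gene, matched 8 of the 9 members and not Nol6. The Exosc3 window (chr4:45320567-45320866, minus strand) lies inside the gene span given for it below, not at the outer end of that span. The letters searched, on both strands, were TTNCATCA, the core of the element that ATF4 binds with C/EBP proteins, and CACGTG, the E-box bound by factors such as MYC and reading the same on both strands. TTNCATCA occurred in 0 of the 8 promoters and in 3.91% of all 32544 promoters of this length. CACGTG occurred in 2 of the 8, Mdn1 and Tex10, and in 7.17% of all promoters. A match is a description of the letters, and no match says only that they are not in this window. Printed 5′ to 3′ on the strand of the gene are Brix1 (chr15:10485888-10486187, minus strand), Dnajc21 (chr15:10470467-10470766, minus) and Zfp622 (chr15:25984116-25984415, plus), the members that rose with borrelidin in both lines with and without the 14 libraries, and Mdn1 (chr4:32656869-32657168, plus) and Tex10 (chr4:48473414-48473713, minus), which hold the E-box letters, set in capitals.
Brix1: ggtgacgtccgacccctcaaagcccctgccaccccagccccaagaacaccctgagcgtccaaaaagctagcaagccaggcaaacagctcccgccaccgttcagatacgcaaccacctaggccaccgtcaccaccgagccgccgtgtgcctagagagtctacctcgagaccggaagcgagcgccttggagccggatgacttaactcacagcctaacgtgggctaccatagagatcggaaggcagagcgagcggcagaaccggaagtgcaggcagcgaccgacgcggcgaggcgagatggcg
Dnajc21: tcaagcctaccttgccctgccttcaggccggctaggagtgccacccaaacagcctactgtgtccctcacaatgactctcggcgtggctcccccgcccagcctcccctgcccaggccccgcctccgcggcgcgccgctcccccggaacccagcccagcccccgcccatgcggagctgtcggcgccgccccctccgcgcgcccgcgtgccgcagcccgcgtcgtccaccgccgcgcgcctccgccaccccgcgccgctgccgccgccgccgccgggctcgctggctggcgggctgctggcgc
Zfp622: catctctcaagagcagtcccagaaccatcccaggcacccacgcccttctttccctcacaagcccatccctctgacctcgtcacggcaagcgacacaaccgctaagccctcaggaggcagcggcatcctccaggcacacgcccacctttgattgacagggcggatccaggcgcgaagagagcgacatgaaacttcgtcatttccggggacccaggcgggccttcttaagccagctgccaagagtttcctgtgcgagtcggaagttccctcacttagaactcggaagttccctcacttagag
Mdn1: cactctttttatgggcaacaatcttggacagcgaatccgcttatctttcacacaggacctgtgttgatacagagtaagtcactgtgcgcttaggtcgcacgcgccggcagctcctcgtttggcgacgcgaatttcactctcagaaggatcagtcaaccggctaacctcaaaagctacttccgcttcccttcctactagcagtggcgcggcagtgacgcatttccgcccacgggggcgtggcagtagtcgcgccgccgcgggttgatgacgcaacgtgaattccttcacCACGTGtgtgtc
Tex10: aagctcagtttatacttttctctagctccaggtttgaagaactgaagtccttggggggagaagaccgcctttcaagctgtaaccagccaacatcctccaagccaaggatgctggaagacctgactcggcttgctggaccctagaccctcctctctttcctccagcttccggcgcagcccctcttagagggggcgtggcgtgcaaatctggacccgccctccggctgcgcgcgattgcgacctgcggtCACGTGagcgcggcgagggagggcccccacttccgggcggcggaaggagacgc

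Borrelidin raised 7 of the 9 genes in wild type MEFs and 4 of them in ATF4 KO MEFs with all libraries, and 6 of the 9 in each line without the 14 libraries that stood apart. In wild type with all libraries none fell, and the 7 rose by 1.17-fold (Rbm28) to 1.80-fold (Zfp622), while Nol6 and Mdn1 did not pass the test (edgeR's quasi-likelihood test, Benjamini-Hochberg adjusted p under 0.05 over the 8986 rows tested). The same test called 59.4% of all rows, 26.5% higher and 32.9% lower. In ATF4 KO, 4 members rose (Brix1, Dnajc21, Zfp622 and Exosc3) and Nol6 fell, against 30.3% of all rows called, 15% higher and 15.3% lower. The members had a median log2 fold change of 0.56 in wild type, 0.25 in ATF4 KO, compared with -0.06 and -0.03 over all rows tested. Among the tested rows of the 3 stretches, where the members lie, 41.9% were called higher in wild type and the median was 0.17. In ATF4 KO 41.6% of the rows of the stretches were called, 25.7% higher and 15.9% lower. Without the 14 libraries, 6 members rose in wild type and none were lower (18.7% of all rows called, 9.99% higher), and 6 rose and 2 fell in ATF4 KO (41.8% called, 21.7% higher and 20.1% lower). The median over the members was then 0.36 in wild type and 0.32 in ATF4 KO, and the median over the rows of the stretches in wild type was 0.05. Of the rows of the stretches, 16.7% were then called higher in wild type, and 31.9% higher and 23.6% lower in ATF4 KO. With the library set as a block, 8 of the 9 rose in wild type, against 29.8% of all rows called. This block takes the difference between the sets as equal in all groups. No wild type borrelidin library stood apart, so the wild type value draws in part on the ATF4 KO libraries. The libraries behind these values are drawn in the plot of levels by group.

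**Figure D1:**
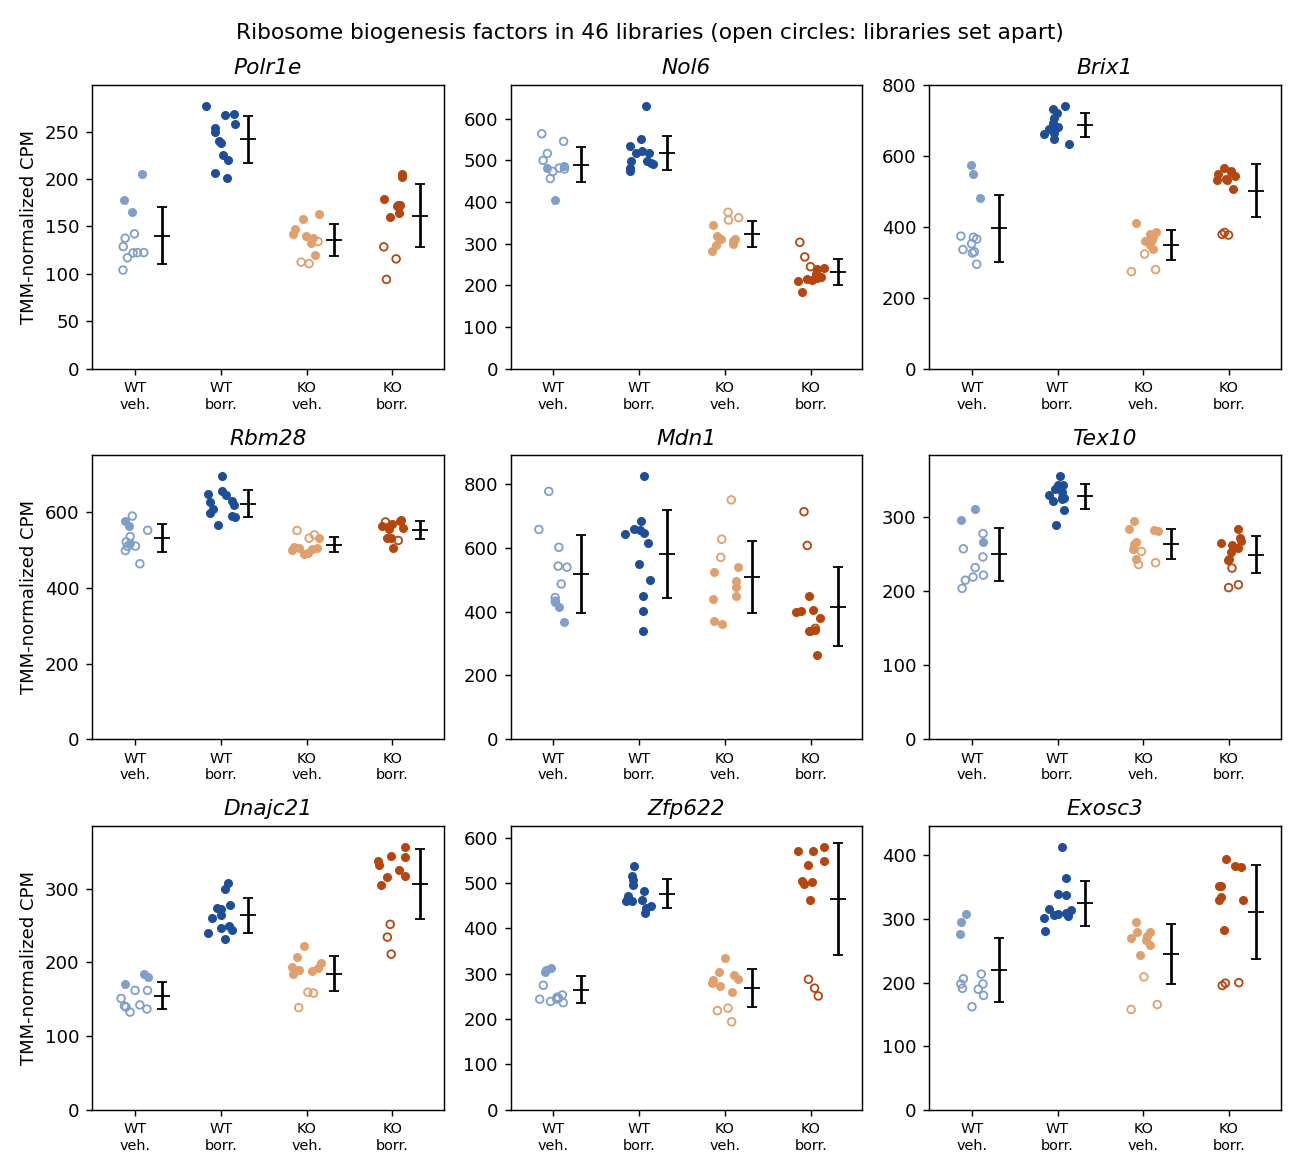
Level of each of the 9 genes (TMM-normalized CPM, linear axis from 0) in every library of the 4 groups; open circles are the libraries that stood apart, and bars give the mean ± SD. The wild type borrelidin libraries of Brix1, Dnajc21 and Zfp622 lie above all wild type vehicle libraries, and the open circles lie low within their groups in panels such as Exosc3, where those of wild type with vehicle are at 162 to 213 CPM against 276 to 308 CPM in the filled ones.

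Polr1e encodes a subunit of RNA polymerase I that helps the enzyme engage its promoter (ENSMUSG00000028318, GRCm38 chromosome 4, 45018583 to 45036565, plus strand). In wild type its TMM-normalized level had a lowest, median and highest value of 104, 129 and 205 CPM with vehicle and of 201, 245 and 277 CPM with borrelidin. The groups nearly separated, with 11 of the 12 borrelidin libraries above the highest vehicle library. The log2 fold change was 0.79 (SE 0.10, adjusted p = 1.6e-08 from edgeR). In ATF4 KO the levels were 111, 137 and 163 CPM with vehicle and 94.2, 172 and 205 CPM with borrelidin, and the log2 fold change of 0.25 (SE 0.10) missed the threshold (adjusted p = 0.061 from edgeR). With the replicate number as a block, under which 33.4% of all rows were called, the value was 0.22 with an adjusted p of 0.038 from edgeR. In ATF4 KO the replicate numbers go with the library sets, so this block cannot tell pairing from those sets. Within the wild type vehicle group, the 8 libraries that stood apart were at 104 to 142 CPM and the other 3 at 165 to 205 CPM. Polr1e rose in both lines without the 14 libraries, by 0.40 in wild type (adjusted p = 0.0017) and 0.32 in ATF4 KO (adjusted p = 0.00033, both from edgeR).

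Nol6, a nucleolar factor of the particle that processes the precursor of the small subunit (ENSMUSG00000028430, chromosome 4, 41114427 to 41124455, minus strand), went another way. Its wild type levels were 404, 482 and 563 CPM (lowest, median, highest) with vehicle and 475, 508 and 630 CPM with borrelidin, overlapping broadly, with a log2 change of 0.08 (SE 0.06, adjusted p = 0.29 from edgeR). With the set block Nol6 rose in wild type by 0.25 (adjusted p = 9.7e-04 from edgeR). No wild type borrelidin library stood apart, so this value is not a comparison within sets and draws in part on the ATF4 KO libraries. Without the 14 libraries the wild type value was 0.18 and missed the threshold (adjusted p = 0.10 from edgeR). The ATF4 KO libraries had 282, 310 and 375 CPM with vehicle and 184, 224 and 303 CPM with borrelidin. There, 11 of 12 borrelidin libraries lay below the lowest vehicle library, and Nol6 fell by 0.48 on the log2 scale (SE 0.06, adjusted p = 9.6e-08 from edgeR). The fall was as large without the 14 libraries, at -0.50 (edgeR, adjusted p = 7.4e-09). It was also present within the ATF4 KO libraries that stood apart, at 357 to 375 CPM with vehicle and 245 to 303 CPM with borrelidin (n = 3 each).

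Brix1 and Rbm28 act on early large subunit particles in the nucleolus. Brix1 (ENSMUSG00000022247, chromosome 15, 10474779 to 10485947, minus strand) had 295, 366 and 575 CPM with vehicle and 635, 680 and 742 CPM with borrelidin in wild type, with no overlap of the groups, and rose by 0.79 (log2 scale, SE 0.09, adjusted p = 1.1e-09 from edgeR). The ATF4 KO libraries had 274, 361 and 411 CPM with vehicle and 378, 534 and 568 CPM with borrelidin. Here 9 of 12 borrelidin libraries were above the highest vehicle library, the other 3 being those that stood apart, and the log2 fold change was 0.52 (SE 0.09, adjusted p = 1.6e-05 from edgeR). In wild type the size rested in part on the libraries that stood apart, which had 295 to 374 CPM against 483 to 575 CPM in the other 3 vehicle libraries. Leaving out the 14 libraries, the log2 fold change of Brix1 was 0.36 in wild type (adjusted p = 4.6e-05) and 0.55 in ATF4 KO (adjusted p = 3.8e-12, both from edgeR).

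Rbm28, an RNA-binding protein of the nucleolus (ENSMUSG00000029701, chromosome 6, 29123576 to 29165006, minus strand), varied least between the groups. It had 464, 521 and 590 CPM with vehicle and 565, 622 and 694 CPM with borrelidin in wild type, and 489, 505 and 551 CPM against 505, 560 and 580 CPM in ATF4 KO. It rose in wild type, where 10 of 12 borrelidin libraries passed the highest vehicle library, by 0.23 (log2, SE 0.04, adjusted p = 3.5e-05 from edgeR). The ATF4 KO value of 0.10 (SE 0.04) had an adjusted p of 0.071 from edgeR. Without the 14 libraries the values were 0.17 (adjusted p = 0.046) and 0.13 (adjusted p = 0.018, both from edgeR).

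Mdn1 and Tex10 work on nucleoplasmic particles of the large subunit. Mdn1, also called midasin, is a giant AAA ATPase that pulls assembly factors off the particle (ENSMUSG00000058006, chromosome 4, 32657119 to 32775217, plus strand). Its libraries scattered more than those of the other members in wild type with borrelidin, at 339, 629 and 824 CPM, against 367, 487 and 777 CPM with vehicle, so that the groups overlapped over most of their range. The coefficient of variation within a group was 22.2% to 30.1%. Mdn1 did not pass the test in wild type (log2 fold change 0.17, SE 0.14, adjusted p = 0.32 from edgeR) or in ATF4 KO (-0.29, SE 0.14, adjusted p = 0.11 from edgeR), where it had 361, 497 and 751 CPM with vehicle and 265, 389 and 713 CPM with borrelidin. Libraries that stood apart were high in Mdn1, at 433 to 777 CPM against 367 to 430 CPM in the other wild type vehicle libraries. Mdn1, without the 14 libraries, rose by 0.53 in wild type (adjusted p = 0.020) and fell by 0.31 in ATF4 KO (adjusted p = 0.035, both from edgeR), and the set block gave the same 2 calls (0.56, adjusted p = 6.7e-04, and -0.29, adjusted p = 0.029, both from edgeR).

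Tex10, a subunit of the complex that works with Mdn1 on these particles and helps to remove an internal spacer of the RNA (ENSMUSG00000028345, chromosome 4, 48430858 to 48473459, minus strand), had 204, 247 and 312 CPM with vehicle and 289, 328 and 355 CPM with borrelidin in wild type. Of the borrelidin libraries 10 of 12 were above the highest vehicle library, and the log2 fold change was 0.40 (SE 0.06, adjusted p = 1.2e-06 from edgeR). The ATF4 KO libraries had 236, 264 and 295 CPM with vehicle and 205, 256 and 284 CPM with borrelidin (log2 fold change -0.08, SE 0.06, adjusted p = 0.35 from edgeR). There, 3 of 12 borrelidin libraries lay below the lowest vehicle library. These 3 stood apart, at 205 to 232 CPM against 236 to 254 CPM in the vehicle libraries of their set. The other ATF4 KO libraries overlapped, at 243 to 284 CPM with borrelidin against 244 to 295 CPM with vehicle. The wild type call was lost without the 14 libraries, at 0.17 (adjusted p = 0.068 from edgeR). Of its exon bases 5.16% are shared with Invs, so some reads could belong to either gene.

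Dnajc21 and Zfp622 are cytoplasmic and act on the same late step: Dnajc21, a J-domain co-chaperone, and Zfp622, a zinc finger protein, help to strip export factors from the large subunit. Both rose in both lines. Dnajc21 (ENSMUSG00000044224, chromosome 15, 10446756 to 10470516, minus strand) had 132, 151 and 184 CPM with vehicle and 231, 262 and 308 CPM with borrelidin in wild type, with a clear gap between the groups and a log2 change of 0.77 (SE 0.08, adjusted p = 4.5e-11 from edgeR). In ATF4 KO the levels were 139, 190 and 221 CPM with vehicle and 211, 321 and 356 CPM with borrelidin. All but 1 of the 12 borrelidin libraries were above the highest vehicle library, and the log2 fold change was 0.73 (SE 0.08, adjusted p = 5.4e-10 from edgeR). In the 32 other libraries the values were 0.56 in wild type (adjusted p = 3.6e-07) and 0.75 in ATF4 KO (adjusted p = 6.6e-14, both from edgeR).

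Zfp622 (ENSMUSG00000052253, chromosome 15, 25984366 to 25998481, plus strand) had 236, 248 and 313 CPM with vehicle and 434, 468 and 537 CPM with borrelidin in wild type. These groups did not overlap either, and the log2 change of 0.85 (SE 0.11, adjusted p = 1.2e-08 from edgeR) was the highest of the 9. In ATF4 KO it had 194, 280 and 335 CPM with vehicle and 251, 502 and 580 CPM with borrelidin, and rose by 0.79 (log2 scale, SE 0.11, adjusted p = 1.6e-07 from edgeR). The wide borrelidin range came from 3 libraries that stood apart at 251 to 288 CPM, while the other 9 had 462 to 580 CPM. Against vehicle libraries of their own set, at 194 to 224 CPM, those 3 were also all higher. With the 14 libraries left out, Zfp622 rose by 0.63 in wild type (adjusted p = 4.5e-08) and 0.87 in ATF4 KO (adjusted p = 1.5e-15, both from edgeR).

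Exosc3 encodes a cap subunit of the RNA exosome, which trims precursors of ribosomal and other RNAs (ENSMUSG00000028322, chromosome 4, 45316613 to 45342732, minus strand, with 4.00% of its exon bases shared with Dcaf10). It had 162, 198 and 308 CPM with vehicle and 281, 311 and 413 CPM with borrelidin in wild type, and rose by 0.56 (log2, SE 0.12, adjusted p = 1.1e-04 from edgeR). The rise rested on the wild type vehicle libraries that stood apart, at 162 to 213 CPM, since the other 3 had 276 to 308 CPM, and without the 14 libraries it was 0.14 (adjusted p = 0.29 from edgeR) and with the set block 0.09 (adjusted p = 0.35 from edgeR). In ATF4 KO, with 158, 267 and 295 CPM under vehicle and 195, 332 and 394 CPM under borrelidin, the log2 fold change was 0.34 (SE 0.12, adjusted p = 0.025 from edgeR, and 0.055 with no filter on low counts). That value remained at 0.36 without the 14 libraries (adjusted p = 1.9e-05 from edgeR).

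Non-overlap of the groups was counted as a second reading of the same libraries. In wild type it held for 3 of the 9 (Brix1, Dnajc21 and Zfp622), all higher with borrelidin, against 4.06% of all tested rows. In ATF4 KO no member was free of overlap, against 2.5% of all rows, although 5 members were called there by edgeR's test at an adjusted p under 0.05, and 8 had an unadjusted p under 0.05. The share of all rows at that unadjusted p was not counted.

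Whether the lines responded differently was tested as the wild type response minus the ATF4 KO response, which share no library. In this contrast 3 of the 9 members were called, all with the more positive response in wild type, against 33.6% of all rows called, 16.5% in that direction and 17.1% in the other. Among the tested rows of the 3 stretches, where the members lie, 29.2% were called in that direction, so the count of members is near the share of the rows around them. The members called were Nol6 (difference of the log2 fold changes 0.56, SE 0.09, adjusted p = 7.4e-06), Polr1e (0.54, SE 0.14, adjusted p = 0.0038) and Tex10 (0.48, SE 0.09, adjusted p = 7.0e-05, all from edgeR). Differences for the remaining 6 ran from 0.04 (Dnajc21, SE 0.11, adjusted p = 0.79 from edgeR) to 0.46 (Mdn1, SE 0.20, adjusted p = 0.070 from edgeR), and a missed threshold does not show that the lines responded alike. The replicate block added Brix1 (0.30, adjusted p = 0.026) and Mdn1 (0.45, adjusted p = 0.031, both from edgeR), for 5 of 9 members, against 40.6% of all rows.

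Of these differences, that of Nol6 passed an adjusted p of 0.05 in each alternative fit as well. Without the 14 libraries it was 0.67 (adjusted p = 3.0e-06 from edgeR), while Polr1e had 0.09 (adjusted p = 0.73) and Tex10 0.23 (adjusted p = 0.076, both from edgeR). Mdn1 was called instead, at 0.83 (adjusted p = 0.0049 from edgeR), with 9.9% of all rows called. Brix1, Dnajc21, Zfp622 and Exosc3 then had values of -0.19, -0.18, -0.24 and -0.22, turned in direction and with adjusted p of 0.090 to 0.23 from edgeR. With the set block the differences of Dnajc21 (-0.23, adjusted p = 0.029) and Zfp622 (-0.32, adjusted p = 0.013, both from edgeR) were past the threshold in that opposite direction, and 20.4% of all rows were called. The block takes the set difference as equal in all groups, which the levels of Zfp622 did not follow. Its libraries that stood apart had a mean of 269 CPM against 530 CPM in the others in ATF4 KO with borrelidin. Under vehicle the means were 212 against 290 CPM in ATF4 KO and 248 against 309 CPM in wild type.

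**Figure D2:**
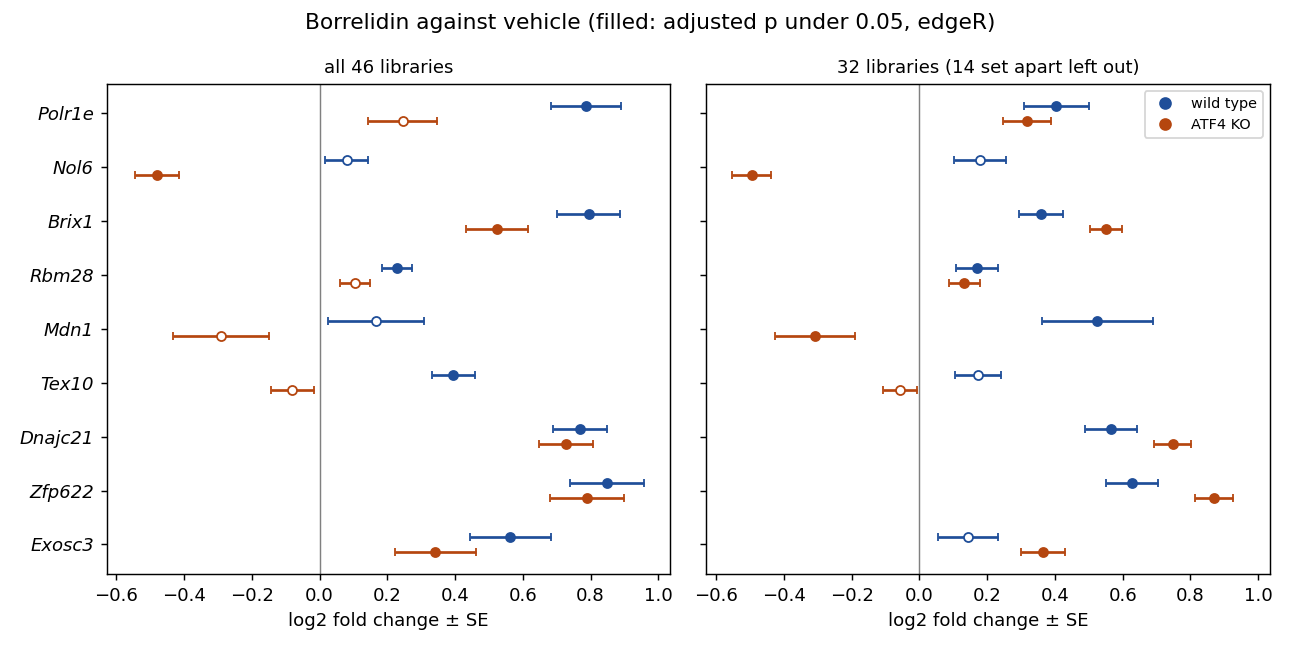
Log2 fold change of borrelidin over vehicle (horizontal axis, point ± SE, edgeR) for the 9 genes in wild type and ATF4 KO, with all 46 libraries on the left and the 32 that did not stand apart on the right; filled points have an adjusted p under 0.05. Nol6 lies below 0 in ATF4 KO in both panels (-0.48 and -0.50), and Dnajc21, Zfp622 and Brix1 lie above 0 in both lines and both panels.

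The lines were also compared with each other at the same treatment, using the same libraries as above. Under vehicle, 2 of the 9 differed, against 35.3% of all rows called, 18.1% higher and 17.2% lower in ATF4 KO. Nol6 was lower in ATF4 KO, with 282 to 375 CPM against 404 to 563 CPM in wild type and no overlap, and a difference of -0.60 (log2, SE 0.07, adjusted p = 2.2e-10 from edgeR). Groups without overlap in that direction made up 2.41% of all rows. Dnajc21 was higher in ATF4 KO by 0.26 (log2, SE 0.08, adjusted p = 0.011 from edgeR), with overlapping groups. When the 14 libraries were left out, Nol6 was still lower (-0.57, adjusted p = 3.4e-07), the call of Dnajc21 was lost (0.14, adjusted p = 0.20), and Brix1 (-0.54, adjusted p = 1.9e-08) and Polr1e (-0.36, adjusted p = 0.0054, all from edgeR) were lower in ATF4 KO, with 21.2% of all rows called. With the set block 4 members were called, all lower in ATF4 KO, against 35.1% of all rows, and in the ATF4 KO response to borrelidin 8 were, against 43.1%.

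Under borrelidin, 6 members were lower and 1 was higher in ATF4 KO than in wild type, against 49.8% of all rows called, 24.1% lower and 25.7% higher. Nol6 had 184 to 303 CPM against 475 to 630 CPM in wild type, and was lower by a log2 value of -1.16 (SE 0.06, adjusted p = 4.6e-21 from edgeR). Brix1 (378 to 568 CPM against 635 to 742 CPM) differed by a log2 value of -0.45 (SE 0.09, adjusted p = 3.6e-05 from edgeR). Tex10 (205 to 284 CPM against 289 to 355 CPM) had -0.40 (SE 0.06, adjusted p = 4.9e-07 from edgeR). In these 3 genes the lines did not overlap under borrelidin, against 6.09% of all rows in that direction. Polr1e (-0.58, SE 0.10, adjusted p = 2.7e-06), Mdn1 (-0.48, SE 0.14, adjusted p = 0.0036) and Rbm28 (-0.17, SE 0.04, adjusted p = 0.0011, all from edgeR) were lower with overlapping groups, and with no filter on low counts Rbm28 missed the threshold (adjusted p = 0.15 from edgeR). Dnajc21 was higher (0.22, SE 0.08, adjusted p = 0.018 from edgeR, and 0.098 with no filter), and Zfp622 and Exosc3 differed by -0.04 and -0.06 (adjusted p = 0.79 and 0.68 from edgeR). In the 32 libraries that did not stand apart, the 6 lower genes and Dnajc21 were called as before, and Zfp622 was also higher in ATF4 KO (0.15, adjusted p = 0.0088 from edgeR), with 54.3% of all rows called.

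**Figure D3:**
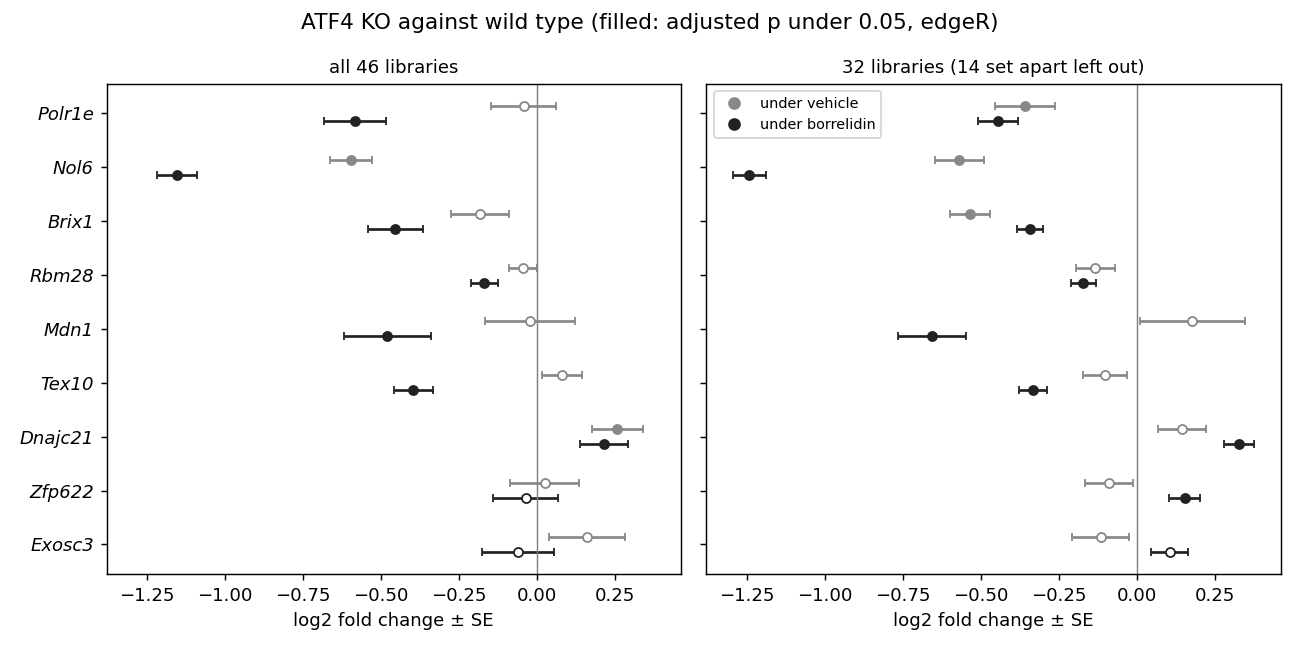
Log2 fold change of ATF4 KO over wild type (horizontal axis, point ± SE, edgeR) for the 9 genes under vehicle and under borrelidin, with all 46 libraries on the left and the 32 that did not stand apart on the right; filled points have an adjusted p under 0.05. Nol6 lies farthest below 0 under both treatments, at -0.60 and -1.16 with all libraries.

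A model after the study's design set the wild type borrelidin libraries (high ATF4 activity) against all other libraries (low), with genotype as a term. It called 7 of the 9 members, all higher with ATF4 activity, against 57.5% of all rows called, 25.5% higher and 32% lower. With genotype as a term this coefficient is the wild type borrelidin response, estimated with another spread, so the same 7 genes are no further evidence. With the 14 libraries left out it called 3, against 10.8% of all rows. At an adjusted p under 1e-10, a stricter threshold taken from the study, edgeR's test called Dnajc21 for borrelidin in wild type (2.11% of all rows called) and Nol6 for the lines under borrelidin (5.49%). It called none of the 9 for borrelidin in ATF4 KO (0.49%), the difference of the responses (0.501%), the lines under vehicle (2.63%) or ATF4 activity (1.31%), where 8, 5, 2 and 7 of them had an unadjusted p under 0.05. How many of all rows had such an unadjusted p was not counted.

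Of 273 genes in lists of ribosome biogenesis factors and ribosomal proteins, 13 lie in the 3 stretches, the 9 members and 4 others. Of these 4, 3 rose with borrelidin in wild type, where 41.9% of the tested rows of the stretches were called higher: Pop1 (log2 fold change 0.41, adjusted p = 7.9e-07), Rpp25l (0.65, adjusted p = 0.0019) and Rpl30 (0.44, adjusted p = 5.7e-04, all from edgeR). Pop1 and Rpp25l are subunits of RNase P and RNase MRP, the latter cutting ribosomal RNA precursors, and Rpl30 is a protein of the large subunit. Polr2k, a subunit shared by the nuclear RNA polymerases, did not pass (0.23, adjusted p = 0.20 from edgeR). Pop1 alone of the 4 was called without the 14 libraries (0.28, adjusted p = 0.021 from edgeR). The response differed between the lines for Polr2k (0.61, adjusted p = 0.026), Pop1 (0.47, adjusted p = 1.0e-04) and Rpl30 (0.51, adjusted p = 0.010, all from edgeR), a contrast in which 29.2% of the tested rows of the stretches were called in that direction, and for none of the 4 without the 14 libraries. In ATF4 KO, Rpp25l rose (0.46, adjusted p = 0.042 from edgeR) and the others were not called. Like Nol6, Pop1 did not overlap between the lines under either treatment, with 166 to 228 CPM in ATF4 KO against 270 to 366 CPM in wild type under vehicle, and 145 to 240 CPM against 371 to 480 CPM under borrelidin. Of all rows, 2.41% under vehicle and 6.09% under borrelidin were lower in ATF4 KO without overlap. Rpl30 did not overlap under borrelidin either, with 570 to 1057 CPM in ATF4 KO against 1065 to 1854 CPM in wild type.

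Per kilobase of exon, where levels of different genes can be compared, Exosc3 and Brix1 led the members and Mdn1 came last in each of the 4 groups. In wild type with vehicle the mean level was highest for Exosc3, at 166 CPM per kb, and Brix1, at 145 CPM per kb, followed by Rbm28 (93.7) and Nol6 (93.4), Tex10 (57.1), Zfp622 (37.1), Polr1e (36.0), Dnajc21 (32.4) and Mdn1 (23.7). Neighbours in this order that lay within the SD of the libraries were Exosc3 and Brix1, Rbm28 and Nol6, Zfp622 and Polr1e, and Polr1e and Dnajc21. In ATF4 KO with borrelidin Nol6, at 44.3 CPM per kb, was below Zfp622 (65.2) and Dnajc21 (64.1). The genes of the stretches, members aside, whose mean log2 levels over the 4 groups lay nearest to the average of the members were Cnr1, Otulin and Ncbp1, with root mean square differences of 0.06, 0.06 and 0.07 on the log2 scale among 283 candidates. The members themselves differed from their own average by 0.11 (Tex10) to 0.44 (Nol6).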

How the data were processed

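RNA-seq counts of 46 libraries of MEFs, wild type or ATF4 KO, with vehicle or borrelidin, were analysed. The authors deposited raw counts per mouse gene identifier, made from reads trimmed with fastp and aligned with HISAT2; for counting, feature counts is named in the paper and HTSeq, with the build mm10, in the submitters' processing notes. Their versions, the strand setting and the release of the annotation were not given in the sources used here, so reads of genes that overlap on opposite strands may not be separated. In the table, 5 rows that name no gene took a mean of 89.1% of all reads (69.0% for no feature) and stayed out of library sizes and tests. GENCODE M21 (GRCm38) held 52083 of the 55416 identifiers, and 33929 had a count.

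The members, the lists and the 3 stretches were chosen with earlier results of these data known, and the stretches were chosen on levels. Over 36 protein-coding genes inside them, the mean log2 CPM correlated with mean levels of the study's table at r = 0.97, against 0.14 over 1777 genes outside (across genes, which are not independent). Of the members, 1 (Nol6) is among these 36 genes, and the others were named by the genes around them. Columns of the study's own fold changes and p-values were not used.

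Counts were fitted in R 4.3.3 with edgeR 4.0.16 (filterByExpr over the 4 groups, TMM, quasi-likelihood test, all 46 libraries, 1 coefficient per group), and 8986 rows were tested, 346 of them in the stretches. A call was a Benjamini-Hochberg adjusted p under 0.05 over all of them. Levels of single genes are TMM-normalized CPM (TMM factors 0.777 to 1.15), and log2 fold changes come from the fit. The quasi-likelihood test gives no SE. Each SE printed or drawn is the absolute log2 fold change divided by the square root of the F statistic of the test. Genes named were the 9 members, the 4 other listed genes of the stretches and the 3 genes nearest to the members' mean profile. Outside this rule, Pax5 is named as the one listed marker in the stretches, and Invs and Dcaf10 because they share exon bases with a member. Alternatives used DESeq2 1.42.0, limma 3.58.1 (voom), the median ratio normalization, no filter, the compared groups alone, a threshold of 1e-10, the replicate number as a block, the library set as a block, and the 32 libraries left without those that stood apart. A library stood apart where its group's scores on component 2 had a gap wider than 50% of their range.

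At 2047362 to 3467765 counts per library the members had 287 to 2693 counts each. No pair of libraries of a group agreed within sampling noise (the lowest chi-square per degree of freedom was 1.96). The labels use the same replicate numbers in every group. Libraries with the same number deviated together from their means, with a correlation over 0.1, in 11 of 11 ATF4 KO pairs. This held in 2 of 11 wild type pairs, 5 of 10 vehicle pairs and 3 of 12 borrelidin pairs. In ATF4 KO the libraries that stood apart carry the same replicate numbers under both treatments. The correlation therefore cannot tell pairing from library sets, and pairing of the ATF4 KO libraries was not shown.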

Additional observations from a re-analysis of the deposited data

Results flagged for a closer look

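For 3 of the 9 genes the response to borrelidin differed between wild type and ATF4 KO by a test of the difference itself, the interaction of genotype and treatment, which called 33.6% of all rows. The test called 43.6% of the tested rows of the 3 stretches, so 3 of 9 is no more than the share among the rows around the members. The wild type response minus the ATF4 KO response was 0.54 on the log2 scale for Polr1e, 0.56 for Nol6 and 0.48 for Tex10, with adjusted p of 0.0038, 7.4e-06 and 7.0e-05 from edgeR. The wild type vehicle libraries that stood apart move with the values of Polr1e and Tex10. Of Polr1e they had 104 to 142 CPM against 165 to 205 CPM in the other 3, and of Tex10 204 to 278 CPM against 266 to 312 CPM; their part in the difference was not tested beyond leaving them out or fitting their set as a block. Without the 14 libraries the values of Polr1e and Tex10 were 0.09 and 0.23 and missed the threshold (adjusted p = 0.73 and 0.076 from edgeR), and Nol6 was at 0.67 (adjusted p = 3.0e-06 from edgeR). The 14 libraries were picked on a component that also follows treatment, so leaving them out is no neutral check.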

How the results depend on the processing

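Over 45 fold changes (9 genes, 5 contrasts), limma voom and the median ratio normalization changed no direction and no call, DESeq2 moved 1 past the threshold (Rbm28 in ATF4 KO), and no filter on low counts took 3 below it (Exosc3 in ATF4 KO, and Dnajc21 and Rbm28 between the lines under borrelidin). At 1e-10 in place of 0.05, edgeR called 1 member in wild type (Dnajc21), 0 in ATF4 KO, 0 for the difference, 0 under vehicle, 1 under borrelidin (Nol6) and 0 for ATF4 activity. In the same order, unadjusted p under 0.05 in edgeR counted 7, 8, 5, 2, 7 and 7. DESeq2 at 1e-10 called 4, 3, 0, 1, 1 and 1, and voom 1, 0, 0, 0, 1 and 0. The share of all rows was not counted for the unadjusted p, DESeq2 or voom readings, so these counts do not show whether the members stand out. The replicate block called 5 for the difference (Brix1 and Mdn1 added) and Polr1e in ATF4 KO, and changed no other call of a member. With the library set as a block, 8 were called in wild type (29.8% of all rows; Nol6 and Mdn1 gained, Exosc3 lost), 8 in ATF4 KO (43.1%), 5 for the difference (20.4%; 3 higher, 2 lower) and 4 under vehicle (35.1%; all lower in ATF4 KO). Without the libraries that stood apart, 8 were called in ATF4 KO (41.8% of all rows) and 3 for ATF4 activity (10.8%). Directions turned without those libraries and with their set as a block, in that order, for the difference in Brix1 (-0.19, -0.044), Dnajc21 (-0.18, -0.23), Zfp622 (-0.24, -0.32) and Exosc3 (-0.22, -0.22), under vehicle in Mdn1 (0.18, 0.21), Tex10 (-0.10, -0.030), Zfp622 (-0.090, -0.25) and Exosc3 (-0.12, -0.15), and under borrelidin in Zfp622 (0.15, 0.066) and Exosc3 (0.10, 0.073). With no filter, Mdn1 under vehicle turned to 0.022. The cause was not tested. The labels give no batch for these libraries, and wild type with borrelidin has none of them, so in wild type the within-set response rests on 3 vehicle libraries.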
